A study of Mus musculus with 15 samples.

Results

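Eggs grown in prepubertal mice of 20 days (d20) were compared with eggs grown in peripubertal mice of 26 days (d26), both matured in vitro. The samples are the 3 arrays titled d20 in vitro and the 3 titled d26 in vitro, 6 of the 15 arrays of the study. All groups came from B6D2F1 females, a hybrid laboratory strain, primed with PMSG (pregnant mare serum gonadotropin), which makes ovarian follicles grow. In both groups the immature oocytes were taken from the ovary 48 h after PMSG and cultured for 16 h in Gmat medium to metaphase II (MII), the stage of the fertilizable egg. The other arrays hold in vitro matured MII oocytes of adults of 7 to 8 weeks (2 arrays), in vivo matured MII oocytes of d26 (2 arrays) and adult (3 arrays) mice, and adult oocytes still in the germinal vesicle (GV) stage (2 arrays). Hyaluronidase was used to strip the surrounding somatic cumulus cells, and each Affymetrix array received the poly(A) RNA of 1 pool of 150 oocytes after 2 cycles of amplification. Nothing in the labels ties the pools of a group to different animals, and p-values here speak only to the spread between these pools, which can be technical.

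A growing oocyte stores maternal mRNA, and transcription stops before meiosis resumes, so an MII egg works from what was laid down earlier. During maturation many stored messages gain or lose poly(A) tail, and some are translated while others decay. Follicles that grow before puberty belong largely to the first wave of follicle growth, and the ability of an egg to support an embryo is acquired progressively as oocyte and follicle grow. Because RNA was captured on oligo(dT), the amount of a message and the length of its tail cannot be told apart here. In such pools, fewer cells of a type and less RNA per cell cannot be told apart either.

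The d26 group was uneven in brightness. The deposited values are MAS5 intensities, and 6613, 6299 and 6647 probe sets lay above an intensity of 200 on d20 arrays 1, 2 and 3, against 5675, 2615 and 3042 on d26 arrays 1, 2 and 3. Median intensities were 16.5, 14.0 and 16.1 at d20 and 14.4, 5.97 and 5.08 at d26. Thus d26 array 1 was close to the d20 arrays and d26 arrays 2 and 3 were dim; 1 adult in vitro and 1 adult in vivo array were dim as well, and these 4 arrays had 2615 to 3042 such probe sets where no other array had under 4882. The hybridization controls, added RNAs that do not come from the oocyte, had geometric means of 1588 to 1777 at d20 and of 1738, 1961 and 905 on d26 arrays 1, 2 and 3, so array 2 was dim in oocyte probe sets but not in these controls. The 5' probe set of Gapdh, which reads the far end of the transcript, stood at 77.1, 15.5 and 76.3 at d20 and at 22.8, 0.895 and 1.89 at d26. Its 3' probe set was lower at d26 too, at 1023, 413 and 983 against 288, 14.8 and 50.7. The ratios of 3' to 5' overlapped, at 13.3, 26.6 and 12.9 at d20 and 12.6, 16.5 and 26.8 at d26. Values below are log2 intensities after quantile normalization over all 15 arrays, which gives every array the same distribution. Since brightness and age move together in these 6 arrays, values with brightness as a covariate and without the 4 dim arrays are given beside the counts of calls and beside list medians, or as the number of settings in which a list median took the other sign.

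**Figure D1:**
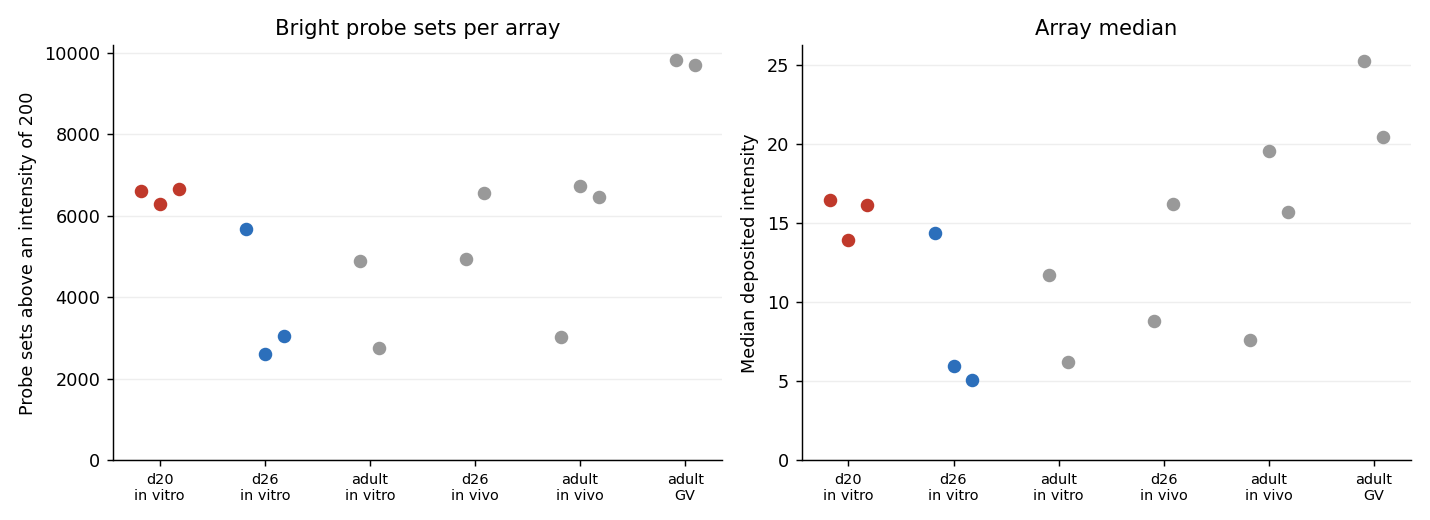
Brightness of the 15 arrays by group, 1 point per array, with the d20 in vitro arrays in red, the d26 in vitro arrays in blue and the other groups in grey. The left panel gives the number of probe sets above an intensity of 200 and the right panel the median deposited intensity; d26 arrays 2 and 3 lie below every d20 array on both scales, and d26 array 1 lies close to them on the right.

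All 10 oocyte markers, among them Zp1 to Zp3, Gdf9, Bmp15 and Mos, had group means above 3.07, the level that the filter on dim probe sets corresponds to, and their mean per array was 10.69 to 11.07 at d20 and 10.07 to 10.81 at d26. The arrays of 3 of these markers, Zp2, Zp3 and Gdf9, did not overlap and were higher at d20. Cumulus and granulosa markers had array means of 3.86 to 4.02 at d20 and 3.72 to 4.08 at d26 over the 21 of 25 genes measured, and 12 genes above the filter level in each group. The defining granulosa genes Amh and Fshr had means of 0.90 and 2.27 at d20 and of 1.85 and 3.67 at d26, Gja1 and Tnfaip6 were higher in mean at d20 (3.96 and 3.74 against 2.48 and 1.43), and the brightest of the list were Kitl (8.13 and 8.37), Nr5a2 (7.64 and 7.83) and Ptgs2 (6.47 and 6.50). On that list, Foxl2 was the single marker whose arrays did not overlap, at 4.52 against 5.61. Array means of the 13 leukocyte markers were 2.58 to 3.37 at d20 and 2.31 to 3.32 at d26, with Ptprc at 0.55 and 2.15, Tyrobp at 3.69 and 1.45 and overlapping arrays in every gene. The 8 oviduct markers had array means of 3.12 to 4.26 and 2.97 to 4.61, a level that includes Cdh1, a gene oocytes express, at 11.17 and 11.48. Among them only Foxj1 did not overlap, at 0.45 at d20 and 1.89 at d26, both under the filter level. Of the erythroid markers, 3 of 6 were measured, and the alpha globin gene Hba-a1 stood at 1.10 at d20 and 3.10 at d26 with no overlap. Alas2 (1.01 and 1.46) and Slc4a1 (2.80 and 2.71) overlapped, so the measured erythroid markers did not move together.

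No gene passed the test between d20 and d26 eggs. The test covered the 22519 probe sets with a mean in the upper 50%, which name 12028 genes, and used limma with Benjamini-Hochberg adjustment. At an adjusted p under 0.05 there were 0 probe sets higher at d20 (0%) and 0 lower (0%), and the smallest adjusted p was 0.06. At an unadjusted p under 0.05, 1415 probe sets were higher at d20 (6.28%) and 1166 lower (5.18%). All 3 d20 arrays lay above all 3 d26 arrays for 2163 probe sets (9.61%) and below them for 2004 (8.9%). Over genes, each taken by its brightest probe set, 738 were higher (6.14%) and 707 lower (5.88%) at that unadjusted p. Of the gene differences, 6478 were positive and 5550 negative, with a median of 0.07 and the middle 50% between -0.44 and 0.65.

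The count of 0 depended on which arrays were used. Without d26 array 1, the bright one, 28 probe sets were higher at d20 and 0 lower. Without the 4 dim arrays, d26 array 1 alone stood for its group, with its spread assumed to be that of the other groups, and 36 probe sets were higher and 1 lower. Only 2 probe sets were called in both, those of Nme2 and Brpf3. Removing adult in vitro array 1 left 1 higher call and removing adult in vitro array 2 left 3, although neither belongs to the groups compared and their removal from the fit, on the same normalized values, altered only the estimate of the spread. In simulated data of the same size, this comparison recovered 49 of 75 probe sets (65.3%) given a log2 difference of 4. It recovered 13 of 66 (19.7%) given 2 and 3 of 59 (5.08%) given 1. These rates describe the simulated data only. Among the d20 and d26 in vitro arrays, fitted array weights ran from 0.247 (d26 array 2) to 2.33 (d20 array 1). Recovery with arrays this unequal was not tested, so the rates do not give the power of the real comparison.

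The scaling also set where 0 lies. With intensities as deposited the median difference of all genes was 1.48, and with arrays scaled to one median it was 0.45, against 0.07 after quantile normalization. Of the 159 genes named by a fixed rule, 87 had a positive difference, which none lost under either scaling, and 72 a negative one, of which 59 turned positive with values as deposited and 8 with median scaling. With brightness as a covariate, 22 of the 87 turned negative and 6 of the 72 positive. Negative differences below are therefore negative relative to the other genes on the same arrays, and for most of these genes not in the deposited intensity.

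**Figure D2:**
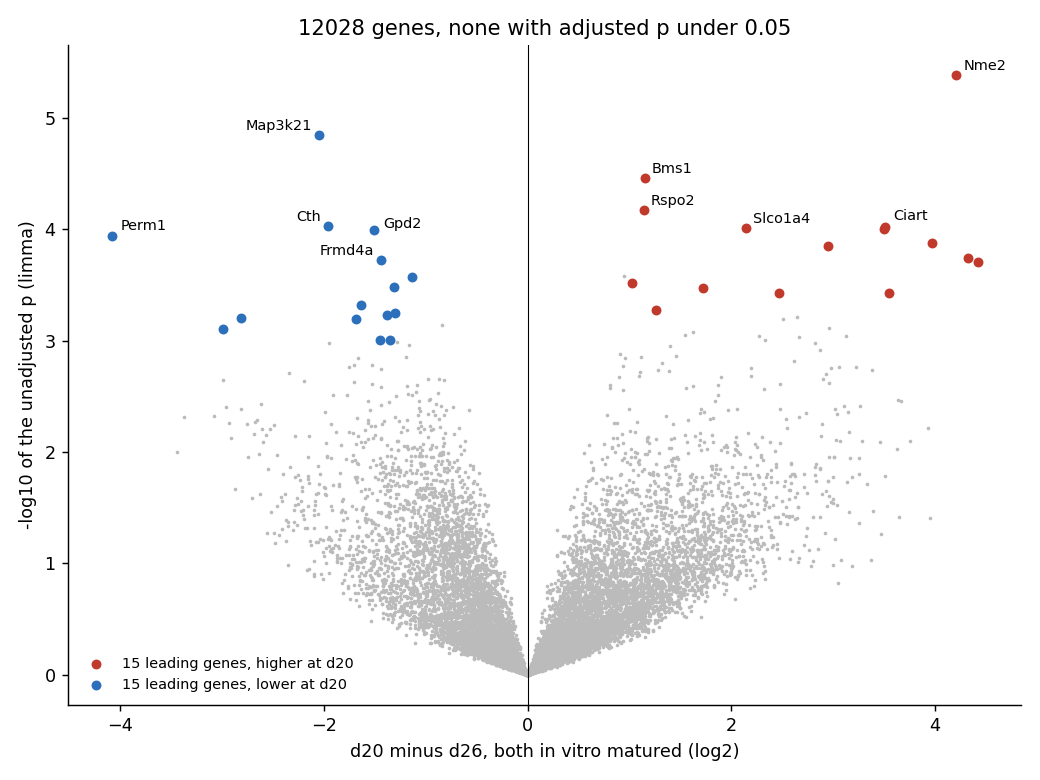
Differences of the 12028 genes tested, d20 minus d26 on the log2 scale, against -log10 of the unadjusted p from limma; red and blue points are the 15 leading genes in each direction, and the grey points are all other genes. The topmost point, Nme2, lies at 4.21, and none of the genes had an adjusted p under 0.05.

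Since nothing passed, the genes below are those with the smallest p-values whose 6 arrays separate by age and whose difference is at least 1; the separation belongs to that choice and is a description. The 15 genes on the d20 side had differences of 1.03 to 4.42 and adjusted p of 0.06 to 0.321. For 9 of them the d26 mean lay under the filter level of 3.07, where MAS5 intensities are close to background, and none had a d20 mean under it.

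Nme2 encodes a nucleoside diphosphate kinase, an enzyme that balances the cell's nucleotide triphosphates. It stood at 5.08, 4.75 and 4.71 on the d20 arrays and at 0.45, 0.88 and 0.58 on the d26 arrays. The d20 arrays lay close together and every d26 array, the bright one included, was near background, with deposited intensities of 45.9, 29.8 and 34.2 against 1.62, 0.941 and 0.595. The difference was 4.21 (SE 0.59, 95% interval 2.95 to 5.48, limma adjusted p = 0.06). Over 25 other settings it ran from 1.40 to 5.22, so its low end lay below that interval. Nme2 shares much of its sequence with its neighbour Nme1, so its probe set may be shared between them. It passed the test in 8 of the 25 other settings in which it was fitted, at adjusted p between 0.00713 and 0.0442, and not in the other 17.

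Other genes on the d20 side were abundant in both groups. Bms1, a GTPase of small ribosomal subunit assembly, was at 11.79, 11.57 and 12.11 at d20 and 10.39, 10.97 and 10.66 at d26, a difference of 1.15 (SE 0.20, adjusted p = 0.13). Rspo2, R-spondin 2, a secreted enhancer of Wnt signalling that oocytes make, was at 12.02, 12.14 and 12.41 and 11.16, 10.98 and 11.01, a difference of 1.14 (SE 0.21, adjusted p = 0.176). For both genes the d20 values were also above all 7 other MII arrays, while their dimmer second probe sets differed by 0.36 and 0.33 with overlapping arrays. Gli3, a transcription factor of the hedgehog pathway, stood at 11.45, 11.67 and 11.93 against 10.77, 10.44 and 10.76 (difference 1.03, adjusted p = 0.263). Its second probe set differed by 1.47 with no overlap, but the third and dimmest differed by -1.32. The gene AU015836 was at 9.98, 9.35 and 10.04 and 8.20, 8.75 and 8.62, a difference of 1.27 (adjusted p = 0.321).

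The organic anion transporter Slco1a4 stood at 7.11, 7.54 and 7.18 at d20 and at 5.18, 4.39 and 5.82 at d26. Havcr1, a cell surface receptor, was at 7.43, 7.71 and 7.26 and 6.14, 5.04 and 6.04. In both genes the d26 arrays were spread widely while the d20 arrays lay within less than 0.5 of each other, and the differences were 2.15 (adjusted p = 0.176) and 1.72 (adjusted p = 0.263).

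The remaining genes on the d20 side were dim at d26 and not bright at d20. Their deposited d20 intensities ran from 11.4 (Slc10a7, array 3) to 126 (Fam20b, array 1), where those array medians were 16.1 and 16.5. These values therefore do not show that a gene was present at d20 and absent at d26. Ciart, a repressor of the circadian clock, was at 4.60, 4.64 and 5.06 against 2.02, 0.88 and 0.88, and Cipc, which binds the clock factor CLOCK, was at 5.22, 5.59 and 5.72 against 4.27, 2.16 and 2.70. Piezo1, a mechanically gated ion channel, stood at 5.11, 5.24 and 5.22 against 2.94, 1.35 and 0.80. The second probe set of Cipc differed by 0.22 with overlap. In Ciart, Cipc and Piezo1, d26 array 1 was the nearest to the d20 level and the dim arrays 2 and 3 the farthest. The same order was seen in Brpf3, a scaffold of histone acetyltransferase complexes, at 5.87, 5.76 and 5.55 against 3.04, 1.22 and 1.00, and its second probe set also separated, by 1.65. Fam20b, a kinase of the linker sugar of proteoglycans, was at 6.38, 4.93 and 5.94 against 3.56, 0.47 and 0.22, where the 2 dim arrays were over 3 below array 1. Scarb2, a lysosomal membrane protein, was at 4.93, 4.42 and 5.02 against 2.10, 2.71 and 0.72, and for it d26 array 2 was the highest of its group and a second probe set differed by 2.16 with overlap. Fam47e stood at 4.16, 3.85 and 4.52 against -0.17, -0.73 and 0.16, with all d26 arrays near background, and Slc10a7 at 3.86, 4.56 and 3.06 against -0.47, 1.69 and -0.37, with a second probe set at -0.44. The sizes of such differences depended on the setting. Over the other settings they ran from 1.26 to 4.50 in Ciart, 1.06 to 5.28 in Fam47e and 0.85 to 4.59 in Slc10a7. Array 1 was the d26 array nearest to d20 in 8 of these 15 genes, and in 622 of all 1159 genes (53.7%) whose d20 arrays lay above their d26 arrays.

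The 15 genes on the d26 side differed by -1.13 to -4.09, with adjusted p of 0.0647 to 0.348, and unlike the first set 12 of them were above the filter level in both groups. Map3k21, a mixed lineage kinase upstream of stress kinases, stood at 4.91, 5.59 and 5.42 at d20 and 7.67, 6.95 and 7.43 at d26. The arrays were well apart, and the difference was -2.05 (SE 0.32, 95% interval -2.73 to -1.36, adjusted p = 0.0647). On deposited intensities the picture was less even, with 40.3, 58.7 and 60 at d20 and 229, 32.4 and 57.3 at d26, so that d26 array 1 alone lay above all d20 arrays before normalization. Map3k21 passed in 4 of 26 other settings, with brightness as a covariate (-2.41, adjusted p = 0.0364) and without the dim arrays (-2.37, adjusted p = 0.0386) among them. Its second, dimmer probe set differed by -1.99 with overlapping arrays.

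Cth, cystathionine gamma-lyase, makes cysteine by transsulfuration, and was at 7.37, 8.29 and 7.24 at d20 and 9.29, 9.86 and 9.61 at d26 (difference -1.96, SE 0.37, adjusted p = 0.176). Gpd2, the mitochondrial glycerol 3-phosphate dehydrogenase that passes electrons to the respiratory chain, was at 6.85, 7.32 and 7.02 against 8.66, 8.29 and 8.76 (difference -1.51, SE 0.29, adjusted p = 0.176). In both genes every d26 array lay above every d20 array by about 1 or more after normalization. For Gpd2 the deposited intensities were 181, 230 and 206 against 464, 80.9 and 156, in which both dim d26 arrays lay below every d20 array, and of its dimmer probe sets the second differed by 0.67 with overlap and the third by -0.83 without. Cyp1b1, a cytochrome P450 of steroid and xenobiotic oxidation, was at 6.78, 7.17 and 6.83 against 7.93, 9.06 and 8.70, a difference of -1.64 (adjusted p = 0.298). Perm1, a regulator of oxidative metabolism known from muscle, was under the filter level at d20, at 1.00, 2.05 and 0.46, and above it at d26, at 4.66, 5.93 and 5.17, a difference of -4.09 (SE 0.78, adjusted p = 0.184). Its deposited intensities were 2.86, 4.89 and 1.87 against 28.1, 19.3 and 12.6, so for Perm1 the groups stayed apart before normalization too.

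Eras, a Ras protein first known from embryonic stem cells, was at 7.69, 7.88 and 7.88 at d20 and 9.24, 9.55 and 8.78 at d26. Plek, pleckstrin, a protein kinase C substrate, was at 6.73, 7.08 and 6.37 and 8.02, 7.93 and 8.16, though its second probe set differed by 1.11 and the third by -0.75, both with overlap. Fam122a, an inhibitor of the phosphatase PP2A, had means of 8.08 ± 0.49 and 9.53 ± 0.46 (SD, n = 3 each). Sclt1, a protein of the centriole's distal appendages, had the brightest values of this set, 8.97, 9.39 and 9.17 and 10.33, 10.80 and 10.35, and its second probe set did not differ beyond its error (-0.05). Cttnbp2, which binds cortactin and microtubules, was at 6.66, 7.37 and 7.08 and 8.61, 9.12 and 8.44, a difference of -1.69 (adjusted p = 0.321). The adhesion protein gene Kirrel and the glutamate receptor gene Grm8 were below the filter level on every d20 array, at 2.23, 1.17 and 1.84 and 1.41, 0.44 and 2.16, against 3.87, 5.11 and 4.71 and 3.95, 4.43 and 4.59 at d26. Frmd4a, Fam221a and Rabl2 completed the set with differences of -1.44, -1.13 and -1.35. With intensities as deposited the sign of Gpd2, Frmd4a, Fam221a, Sclt1, Cyp1b1, Plek, Eras, Fam122a and Rabl2 turned, to between 0.02 and 0.52, whereas the other 6 genes stayed negative.

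**Figure D3:**
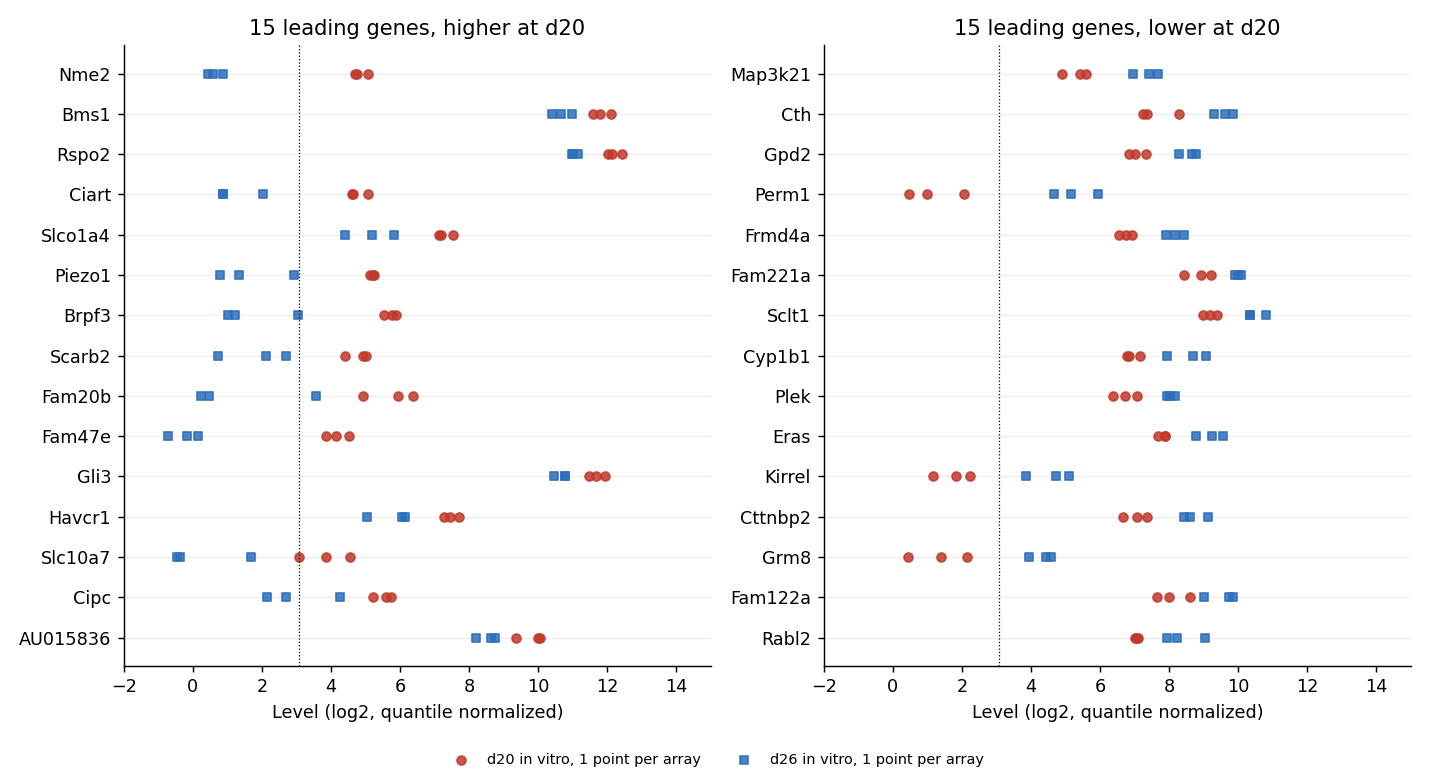
Level of each of the 30 leading genes on the 6 arrays, log2 after quantile normalization, with d20 arrays as red circles, d26 arrays as blue squares and the filter level of 3.07 as a dotted line. The left panel gives the genes on the d20 side, where 9 d26 means fall left of the line, and the right panel the genes on the d26 side, where 3 d20 means do.

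The leading genes were also set beside the 7 other MII arrays. Of the 15 genes on the d26 side, all d20 arrays lay below every other MII array for 13, all but Perm1 and Cyp1b1, and the d26 arrays lay above all of them only for Perm1. Among the 1195 genes whose d20 arrays all lay below the d26 arrays, the corresponding counts were 221 and 30, and over all 12028 genes the shares were 3.51% and 0.615%. Of the 15 genes on the d20 side, the d20 arrays lay above every other MII array for 5 (Bms1, Rspo2, Slco1a4, Gli3 and Havcr1) and the d26 arrays below all of them for 6 (Nme2, Ciart, Scarb2, Fam47e, Cipc and AU015836), against 219 and 67 of the 1159 genes whose d20 arrays all lay above, and 3.5% and 1.34% of all genes. Among all non-overlapping genes it was thus more often d20 than d26 that lay outside the other MII arrays, in both directions, as it was over all genes. All 3 arrays of a group had to lie outside to be counted. The d20 arrays were closer to each other (correlations of 0.913 to 0.931) than the d26 arrays (0.807 to 0.882). The part of this unequal spread in the counts was not tested. These counts are descriptive, since the genes were chosen for low d20 or low d26 values, and the comparisons share arrays.

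The levels by group put figures on this. Map3k21 had means of 8.71 in adult in vitro, 6.71 in d26 in vivo, 8.86 in adult in vivo and 6.68 in GV oocytes, beside 5.31 ± 0.35 (SD, n = 3) at d20 and 7.35 ± 0.36 (SD, n = 3) at d26 in vitro. Its d20 level was below adult in vitro eggs, by -3.41 (limma adjusted p = 0.00213), and it was the single probe set called lower in that comparison (0.00444% of those tested). That comparison reuses the low d20 arrays by which Map3k21 was chosen. For Cth the means were 9.86, 8.86, 9.24 and 6.70 in the same order, beside 7.63 ± 0.57 and 9.59 ± 0.28 (SD, n = 3 each). Nme2 had 4.27, 4.23, 6.28 and 5.86, beside a d20 mean of 4.85 ± 0.20, and all of these lay far above its d26 in vitro mean of 0.63 ± 0.22 (SD, n = 3 each). The d26 in vitro eggs were below d26 in vivo eggs in Nme2 by -3.59 (limma adjusted p = 0.083), in Ciart by -4.31 (0.0595) and in AU015836 by -1.94 (0.0564), none of which passed. These comparisons reuse the low d26 in vitro arrays by which the genes were chosen, 2 of them dim, and add no separate support. Rspo2, at 11.15, 11.62, 11.57 and 12.65, had its highest mean in GV oocytes and its next highest in d20 eggs.

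Adult in vitro means were nearer to d26 than to d20 for 14 of the 15 genes on the d26 side and for 8 of the 15 on the d20 side. The means of d26 in vivo eggs were nearer to d20 for 2 of the 15 genes on the d26 side and 11 of the 15 on the d20 side, and those of adult in vivo eggs for 1 and 10. Among all genes with no overlap between ages, adult in vitro means were nearer to d20 for 20.5% on the d26 side and 28.6% on the d20 side, against 52.7% and 58.7% for d26 in vivo and 38.9% and 46.9% for adult in vivo. One of the 2 adult in vitro arrays is itself dim, with 2753 probe sets above 200, as is 1 of the 3 adult in vivo arrays, with 3035. The part of brightness in this nearness was not tested.

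**Figure D4:**
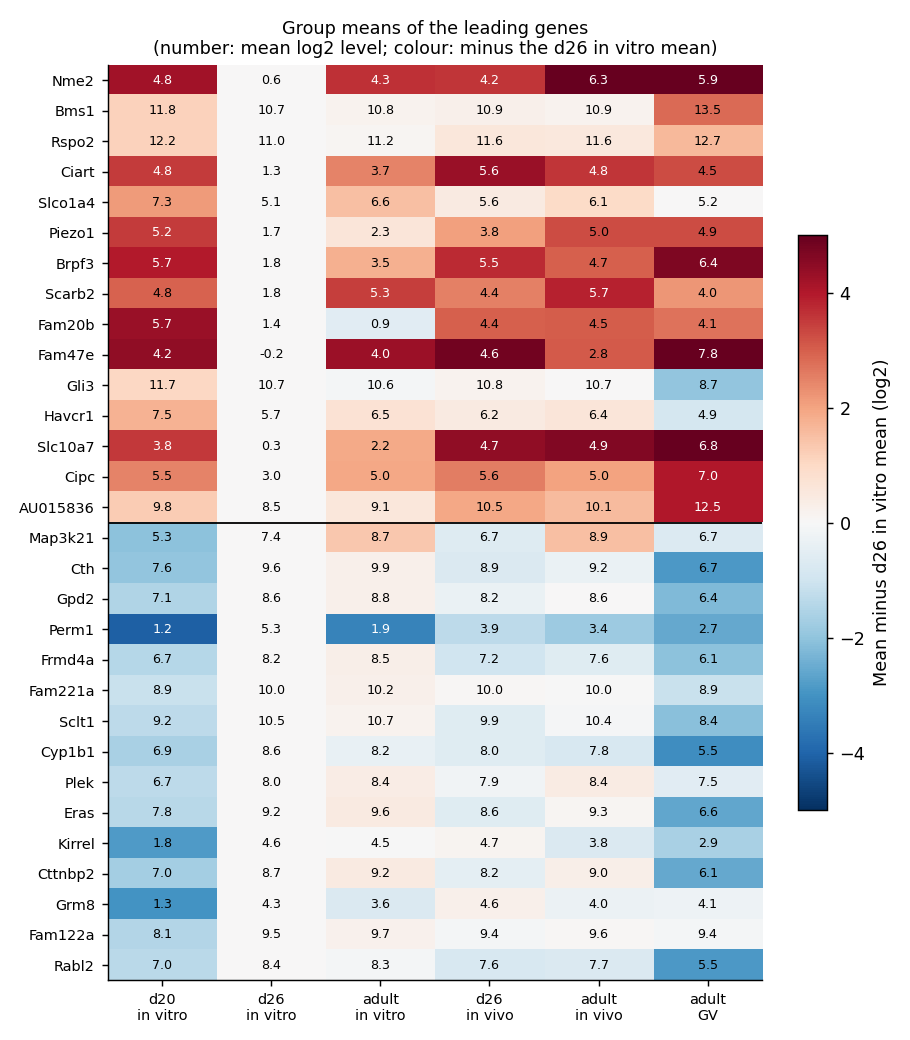
Mean log2 level of the 30 leading genes in the 6 groups, printed in each cell, with the colour giving the mean minus the d26 in vitro mean. The upper block holds the genes on the d20 side and the lower block those on the d26 side; in the lower block the d20 in vitro column is blue throughout and the adult in vitro column is mostly near 0 or red.

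Genes of egg biology were grouped into 31 lists, and no member of any list passed the test. Medians of the lists are given relative to the median of all genes, and the shares to hold them against are the 9.64% of genes with all d20 arrays above the d26 arrays and the 9.94% with all below. The lists were chosen with earlier results of these data known. List members are given by their brightest tested probe set alone. With brightness as a covariate, 22 of the 87 named genes with a positive difference turned negative, none of them a leading gene. Positive differences of single list genes carry that limit.

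The 8 zona pellucida and egg surface genes had a relative median of 0.36, which became -0.10 with brightness as a covariate and 0.11 without the dim arrays, and 2 of the 8 separated, both on the d20 side. Zp3, a coat protein of the zona, was at 9.65, 9.47 and 9.30 at d20 and 9.20, 8.23 and 8.92 at d26 (difference 0.69, SE 0.32, adjusted p = 0.43). Zp2 was at 9.10, 8.74 and 8.75 and 8.18, 7.93 and 8.30 (difference 0.73, adjusted p = 0.484), and in both genes the lowest d20 array exceeded the highest d26 array by less than 0.5. The arrays overlapped for Astl, the protease that cleaves Zp2 after fertilization, at 11.61, 10.81 and 10.73 and 11.13, 8.70 and 9.45. In GV oocytes Zp2 and Zp3 stood at 13.01 and 13.15, so both ages had the low coat gene levels of MII eggs.

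Among 22 growth factor and Kit signalling genes 8 differences were positive and 14 negative. Their relative median of -0.30 kept its sign in every setting that could move it (-0.36 to -0.07). It was only -0.07 with brightness as a covariate and -0.16 without the dim arrays. Separation was seen for 3 genes on the d20 side and 4 on the d26 side. The receptor gene Kit, which answers the granulosa cell ligand, was at 10.32, 9.85 and 10.30 at d20 and 9.63, 9.08 and 9.20 at d26 (difference 0.86, SE 0.29, adjusted p = 0.414). The activin receptor genes Acvr1 and Acvr2a had differences of -0.95, with overlapping arrays, and -1.45, and the lipid kinase subunit Pik3ca one of -0.60. These genes had 3, 2 and 5 tested probe sets, and the values are those of the brightest. Of the secreted factors, Gdf9 was at 13.52, 13.45 and 13.46 against 13.39, 12.34 and 13.31, where only the dim d26 array 2 stood low, and Bmp15 was at 11.46, 12.02 and 11.24 against 11.87, 11.84 and 11.84, with overlapping arrays and an interval of -1.09 to 0.54.

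The 14 genes of meiotic arrest and cAMP control had the highest relative median, 0.65, with 11 positive and 3 negative differences, but it was -0.04 with brightness as a covariate and 0.08 without the dim arrays. Wee2, the oocyte kinase that holds CDK1 inactive, ran the other way, at 11.96, 12.07 and 12.20 against 12.46, 13.17 and 12.30 (difference -0.56, adjusted p = 0.422), as did Prkar2a, a regulatory subunit of protein kinase A (-0.64). The phosphatases Cdc25a and Cdc25b had differences of 1.10 and 1.52. In the 25 genes of MII arrest and the MAP kinase pathway the relative median was 0.13, but 0.0037 with brightness as a covariate and 0.01 without the dim arrays. Mos, the kinase that keeps the egg in metaphase, was at 11.83, 9.20 and 11.37 at d20 and 10.99, 6.36 and 6.76 at d26, so d26 array 1 and all d20 arrays were high and the dim d26 arrays low. Its difference of 2.76 had an interval of -0.33 to 5.86 (adjusted p = 0.462). Mastl, the kinase that restrains the phosphatase PP2A, differed by -0.42 with no overlap, and Ccnb2 and Dppa3 by 0.46 and -0.65 with overlap.

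Of 17 checkpoint genes, 9 were positive and 8 negative, and Bub3, which docks the checkpoint at kinetochores, was at 10.53, 10.52 and 10.75 against 9.82, 9.96 and 10.14 (difference 0.62, adjusted p = 0.414). Kntc1, part of the complex that brings dynein to kinetochores, was at 8.78, 8.77 and 8.82 against 9.12, 9.47 and 10.00 (difference -0.74). The d20 arrays of Kntc1 were nearly identical and below all d26 arrays. In the 18 genes of actin and spindle migration, Cdc42, the GTPase of the cortical cap, was at 11.22, 11.23 and 11.22 against 10.40, 9.95 and 10.52 (difference 0.94, SE 0.24, adjusted p = 0.402). The motor gene Myo5b was at 11.61, 11.21 and 11.44 against 10.99, 10.06 and 10.86 (0.79), while Rab11a, which marks the vesicles this motor moves, differed by -0.51. The 16 cohesin, shugoshin and separase genes had 8 differences each way and a relative median of -0.06, which took the other sign in 4 of 26 settings, with Sgo1, the shugoshin of mitotic centromeres, at 0.49 and the cohesin subunit Stag2 at -0.71.

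The 19 dormant maternal messages, which gain poly(A) tail during maturation, had a relative median of 0.01, and 8 of 26 other settings gave it the other sign. Plat, tissue plasminogen activator, the classical message of this kind, was at 12.87, 12.87 and 12.87 on the d20 arrays and 12.63, 10.97 and 11.78 on the d26 arrays, where array 1 was again nearest to d20 (difference 1.07, adjusted p = 0.432). Hprt, of purine salvage, was at 9.83, 10.41 and 9.74 against 10.53, 11.05 and 10.88 (difference -0.83, SE 0.28). Of the 32 genes that bind poly(A) or stored messages, Patl2, an oocyte translational repressor, was at 8.67, 8.34 and 8.53 against 7.60, 6.61 and 7.37 (difference 1.32, SE 0.34, 95% interval 0.59 to 2.05, adjusted p = 0.402). Ybx2, which packs messages in germ cells, differed by 1.90 with overlap, and Papola, the nuclear poly(A) polymerase, by -0.85. Among 36 decay and deadenylation genes, the deadenylase Parn was at 8.20, 8.35 and 8.46 against 7.61, 6.99 and 7.17 (1.08) and the adaptor Cnot11 at 11.03, 11.36 and 10.73 against 11.37, 11.56 and 11.74 (-0.51).

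The 44 ribosomal protein genes had a relative median of -0.18, which turned to 0.41 with brightness as a covariate and 0.20 without the dim arrays, and 3 separated on the d20 side against 9 on the d26 side. The member with the smallest p was Rpl10a, at 5.36, 4.91 and 5.25 against 3.27, 0.95 and 4.33 (2.32, adjusted p = 0.409). Rpl13a was at 9.38, 9.25 and 9.16 against 10.38, 10.13 and 9.97 (-0.89, adjusted p = 0.414), and Rps27l at 9.80, 10.80 and 9.20 against 11.21, 12.10 and 10.98 (-1.50); ribosomal protein genes have many processed copies, so their probe sets may be shared. The 40 proteasome genes had 31 positive and 9 negative differences and a relative median of 0.40, which became -0.03 with the covariate and 0.17 without the dim arrays. Psmd2, a subunit of the regulatory particle, was at 10.43, 9.80 and 9.84 against 9.44, 7.62 and 8.93 (1.36, adjusted p = 0.414), and Psmb2, a subunit of the catalytic core, at 7.49, 7.62 and 7.73 against 6.58, 6.82 and 7.15 (0.76). In both subunits d26 arrays lay below all d20 arrays. The 36 translation factor genes had a relative median of -0.03, with the other sign in 6 of 26 settings.

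The 71 respiratory chain and ATP synthase genes had 34 positive and 37 negative differences and a relative median of -0.15, against 0.35 with brightness as a covariate and 0.30 without the dim arrays. Uqcrfs1, the iron-sulfur protein of complex III, was at 5.99, 5.67 and 5.72 against 4.87, 4.14 and 3.46 (1.64), and the ATP synthase subunit Atp5k at 7.29, 7.15 and 6.55 against 7.68, 9.12 and 8.21 (-1.34). Tfam, which packages mitochondrial DNA, differed by -1.59 and the inner membrane protein Letm1 by 2.74. Genes of pyruvate oxidation and the TCA cycle (25), glycolysis and the pentose phosphate pathway (23), fatty acid oxidation (30) and cholesterol synthesis (18) had relative medians of -0.05, 0.05, -0.07 and -0.13, and each took the other sign in 2 to 5 of 26 settings. Mpc1, a subunit of the mitochondrial pyruvate carrier, was at 7.61, 8.56 and 7.25 against 8.51, 9.35 and 8.99, and Insig1, which retains the sterol sensor in the endoplasmic reticulum, at 9.95, 10.29 and 10.34 against 10.91, 11.56 and 11.02.

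Hspa1b, an inducible HSP70, was at 3.31, 2.44 and 3.37 at d20 and 4.38, 5.32 and 5.28 at d26 (difference -1.95, SE 0.48, adjusted p = 0.348), while the 40 chaperone genes as a group had a relative median of -0.13, which turned to 0.0066 with brightness as a covariate and 0.11 without the dim arrays. Mcl1, an inhibitor of apoptosis, was at 8.38, 8.53 and 8.47 against 6.79, 7.20 and 7.00 (difference 1.46, SE 0.37, 95% interval 0.67 to 2.26, adjusted p = 0.395), and its d20 level was above the means of all other groups, which were 7.11 or lower. Among its relatives, the death promoting genes Bcl2l11 and Bad had differences of 1.82 and -1.99. Of the 26 apoptosis regulators, 5 separated on the d20 side and 2 on the d26 side. Their relative median was 0.10, which became 0.06 with brightness as a covariate and 0.02 without the dim arrays. The deacetylase Sirt1 was at 9.12, 9.59 and 9.28 against 10.10, 10.62 and 10.19 (difference -0.97, SE 0.26, adjusted p = 0.402), with no overlap. Of the 48 histone modifier genes that include it, 7 separated on the d20 side and 7 on the d26 side. Their relative median was 0.22, which became -0.19 with brightness as a covariate and 0.03 without the dim arrays.

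In the 20 genes of DNA methylation and imprint protection the relative median was 0.23. It kept its sign in every setting that could move it (0.05 to 0.30), but was only 0.05 with brightness as a covariate and 0.16 without the dim arrays. Zfp57, which guards imprints in the embryo, was at 5.52, 6.50 and 5.18 against 6.87, 7.43 and 7.41 (-1.50, adjusted p = 0.414), and the methyl-CpG binding protein genes Mbd1 and Mbd2 differed in opposite directions, by 3.22 and -1.30. The 20 subcortical maternal complex and maternal effect genes had a relative median of 0.50. It stayed positive in every setting that could move it (0.06 to 0.59), but was only 0.06 with brightness as a covariate and 0.22 without the dim arrays. Only 3 of the 20 separated, all on the d20 side, among them Ctcf, the chromatin loop anchor, at 10.46, 10.60 and 10.06 against 10.00, 9.53 and 9.92 (0.56, adjusted p = 0.415). Nlrp5, a core member of the complex, was at 11.42, 11.66 and 10.78 against 10.87, 11.43 and 11.59, with a difference of -0.01 and an interval of -0.54 to 0.51. Among 15 imprinted genes, Igf2, the insulin-like growth factor, was at 6.15, 5.56 and 6.14 against 4.99, 2.95 and 4.45 (1.82, adjusted p = 0.414).

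**Figure D5:**
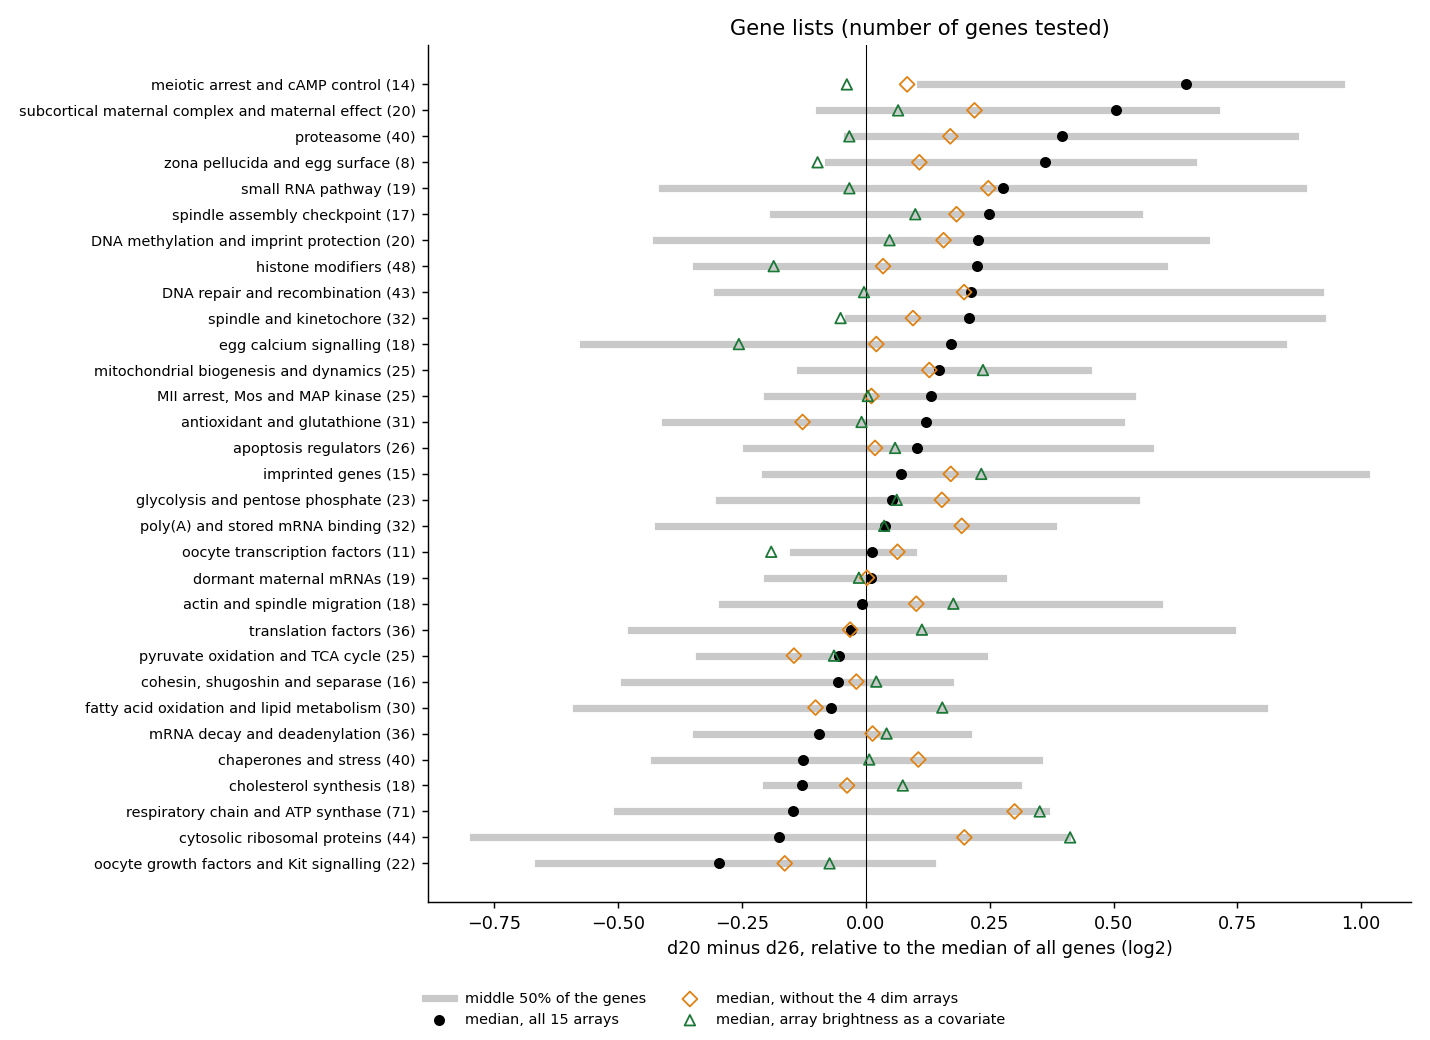
Difference between d20 and d26 for 31 gene lists, relative to the median of all genes on the log2 scale, with the number of genes tested in brackets. Grey bars span the middle 50% of each list's genes, black points give the median with all 15 arrays, orange diamonds the median without the 4 dim arrays and green triangles the median with array brightness as a covariate; the proteasome median lies at 0.40, 0.17 and -0.03 in turn.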

How the data were processed

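The authors deposited intensities of 45101 probe sets on 15 arrays. The submitters' processing notes name MAS5, with no version or target level. The precision rests on 3 arrays per group. Control probe sets (64) were left out, log2 values were quantile normalized over all arrays, and the upper 50% by mean was tested (22519 probe sets). limma 3.58.1 in R 4.3.3 fitted 1 coefficient per group with trended moderated variances (9 residual degrees of freedom) and Benjamini-Hochberg adjustment, and a call is an adjusted p under 0.05. The fit was tested on simulated data. The other 9 arrays share in the normalization, the filter and the estimate of the spread. Symbols came from the platform annotation (34958 probe sets with 1 symbol, 932 with several, 9211 with none), 34754 of them updated through a mouse gene table used for names only, and a gene is its brightest tested probe set. Named are, since no gene passed, the 15 genes per direction with the smallest p, no overlap and a difference of at least 1, 4 genes per list by p, and stage and reference genes, of which Npm2 had no tested probe set of its own. Members, lists and rule were chosen with earlier results of these data known. No 2 arrays were duplicates, and replicate numbers follow record order and pair no samples. Alternatives covered scaling, filter, pseudocount, samples, variance model, array weights, title number, brightness and left-out arrays.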

Additional observations from a re-analysis of the deposited data

How the results depend on the processing

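With 0 probe sets called in each direction, the count of calls higher at d20 was 1 with values as deposited, 1 with median scaling, 2 with the upper 30% of probe sets, 16 with array weights, 2 with the title number blocked into 2 levels, 1 with brightness as a covariate and 36 without the 4 dim arrays. It ran from 0 to 28 when each array was left out in turn, 28 being without d26 array 1, 1 without adult in vitro array 1 and 3 without adult in vitro array 2. Calls lower at d20 were 1 with the upper 30%, 3 with array weights, 1 with brightness as a covariate and 1 without the dim arrays, and 0 with any single array left out. Both counts stayed at 0 with no filter, a pseudocount of 16, only the 6 arrays compared (smallest adjusted p 0.429) and variances without a trend. The cause of these changes was not tested. No paired analysis was possible because the labels give no number shared between groups. The title block separates d26 array 1, numbered up to 12, from the other 5 arrays, so within the upper numbers the comparison is the one without that array; the labels do not say what the number marks. Of the 159 named genes, 14 passed by their brightest probe set in at least 1 setting (29 results in all; 16 genes with their other probe sets counted), and the other 4079 stayed on their side of the threshold. Array weights ranged from 0.247 (d26 array 2) to 2.33 (d20 array 1) in the 6 arrays compared. Values near the filter level of 3.07 carry little signal over background, which limits the 9 leading genes with a d26 mean below it and the 3 with a d20 mean below it.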

Other observations

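Probe sets that passed in some setting other than the reported one numbered 71, of which 9 had no single symbol. The genes below were picked after their values were seen. Gigyf2, a translational repressor, and Nudcd3, a dynein cofactor, passed both with array weights and without the 4 dim arrays, with d20 minus d26 of 2.78 to 3.87 and 3.49 to 3.85. Calls made only without the dim arrays, where d26 array 1 stands alone, included Mbd4, a DNA repair glycosylase, at 5.14, the kinase gene Map3k7 at 4.08 and the germ cell RNA-binding protein gene Boll at 3.57. Calls made only without d26 array 1, where the dim arrays stand for d26, included Incenp, of the chromosomal passenger complex, at 5.65, the heterochromatin protein gene Cbx5 at 4.23, methionine synthase Mtr at 5.22 and a probe set of Bcl2l11 at 5.30. The array weight calls shared 7 probe sets with those without the dim arrays and 6 with those without d26 array 1, and all 3 shared 2.

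Among all genes whose d20 arrays lay below their d26 arrays, the d26 array nearest to d20 was array 1 for 756 of 1195 (63.3%), array 3 for 305 (25.5%) and array 2 for 134 (11.2%). Across probe sets, d20 array 1 correlated with d26 array 1 at 0.92, with d26 array 3 at 0.86 and with d26 array 2 at 0.78, values that describe these arrays and share the normalization.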
